A study of Mus musculus with 6 samples.

Results

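The muscle-linked microRNA strands described here are both strands of the miR-143 hairpin, both strands of the miR-145a hairpin and the 3p strand of miR-133a. They were taken by name (mmu-miR-143-3p, mmu-miR-143-5p, mmu-miR-145a-5p, mmu-miR-145a-3p and mmu-miR-133a-3p, written without the species prefix from here on), 5 of the 1915 mouse names in the table, and all 5 were among the 227 names that passed a filter on low counts. Every one of them had counts in all 6 libraries. The libraries given here hold small RNA from 3 primary tumors of the oviduct, which the deposited columns call ADT tumours and whose genotype is Dicer1ko/D1693N, and from 3 oviducts of genotype Dicer1+/D1693N. The series text speaks of 4 tumors and 5 oviducts, and the other libraries are not analysed here. Both groups carry the D1693N allele, beside a knocked-out allele in the tumors and a normal allele in the oviducts, and neither was treated. The labels give no age, strain or driver of the knockout, and leave unsaid whether each library is from its own animal, so the p-values reflect spread among these libraries, which may be technical. Tumor state and genotype changed together and cannot be told apart.

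A microRNA hairpin is cut by Dicer into a 5p and a 3p strand, of which usually 1 is kept as the guide that represses messenger RNAs. The RNase IIIb domain of Dicer, where D1693N lies, cuts the 5p side of the hairpin, and its RNase IIIa domain the other side. The hairpins of miR-143 and miR-145a are neighbours that are made from a shared primary transcript in smooth muscle and fibroblasts, where serum response factor and myocardin drive them and where they favour the contractile state. The guide of miR-143 is its 3p strand and that of miR-145a its 5p strand. The miR-133a hairpins are made together with miR-1a in skeletal and heart muscle, where miR-133a takes part in the control of myocyte growth and differentiation.

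The following mature sequences belong to microRNAs whose levels ran closest to those of a member over the 6 libraries, and they are shown, with seeds (bases 2 to 8) in capitals, so that their targeting sequences can be compared. They were read from RefSeq (GRCm38.p6), which gave 7 of the 8 such names, and the eighth name was miR-486a-5p. The first pair stood closest to the miR-143 strands, the next 3 to miR-145a-5p and the last pair to miR-145a-3p.
miR-1843b-5p: aUGGAGGUcucugucugacuu
miR-1843a-5p: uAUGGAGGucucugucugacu
miR-218-5p: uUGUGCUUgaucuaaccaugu
miR-411-5p: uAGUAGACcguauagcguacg
miR-92b-3p: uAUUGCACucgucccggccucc
miR-125a-5p: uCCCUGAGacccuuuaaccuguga
miR-29c-3p: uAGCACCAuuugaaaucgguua
The 7 seeds were all different, although those of the miR-1843 strands are the same run of bases shifted by 1 position.

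Mir143 (ENSMUSG00000065445) lies on the minus strand of chromosome 18 from 61649196 to 61649258 and Mir145a (ENSMUSG00000065592) from 61647825 to 61647894 (GRCm38, GENCODE M21), with 1301 bases between them and miR-143 transcribed first. GENCODE places both hairpins outside any other gene, downstream of Carmn, a long noncoding RNA of the same strand that ends 367 bases before Mir143. The RefSeq model of Carmn, from 61645878 to 61665538, spans both hairpins. Identical miR-133a-3p strands come from Mir133a-1 and Mir133a-2, and the counts do not separate these loci. Mir133a-1 (chromosome 18, 10782909 to 10782976) lies in an intron of Mir133a-1hg, on the same strand. It also lies within an intron of Mib1, which is on the opposite strand. Mir133a-2 lies outside any annotated gene (chromosome 2, 180398379 to 180398482).

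Libraries held between 154002 and 272167 mouse counts in the tumors and between 297039 and 580390 in the oviducts. Levels are given as shares of the library or as CPM (counts relative to the library size, scaled by the trimmed mean of M-values, TMM). Of the 227 names tested with edgeR's quasi-likelihood test, 119 were called at an adjusted p under 0.05, 61 higher and 58 lower in the tumors, with a median log2 fold change of 0.20 over all names. The split depended on the scaling, with 72 higher and 26 lower when library totals set the scale and 42 higher and 92 lower when 3p names alone did. Summed levels of 9 names of multiciliated cells, the epithelial cells that mark the oviduct, lay between 422 and 1214 CPM in the tumors and between 14867 and 21618 CPM in the oviducts. Only 7 of these names had a count and 5 were tested. Of the 5, 3 were called lower, beside 58 of all 227 names, and 2 were not called.

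Of the 5 strands, both strands of miR-145a fell in the tumors, and neither strand of miR-143 nor miR-133a-3p was called. The falls were 27.2-fold for the guide miR-145a-5p and 3.74-fold for miR-145a-3p. Names called lower made up 25.6% of all names tested, against 2 of the 5 here. Levels of the 2 strands did not overlap between the groups and those of the other 3 did. Among all names tested 60.4% did not overlap in either direction, and 30.4% were lower in the tumors without overlap. Since these are bulk samples, fewer muscle cells and less microRNA per cell cannot be told apart.

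miR-143-3p was the most abundant name in 5 of the 6 libraries and came second in tumor 3. It took 60.9% (exact 95% interval 60.7 to 61.1) of the counts in tumor 1, 27.7% (27.5 to 27.9) in tumor 2 and 13.9% (13.8 to 14.1) in tumor 3, against 44.1%, 45.8% and 47.2% in oviducts 1, 2 and 3. The tumors thus lay on both sides of the oviducts, which were close to each other. The means were 34.2% ± 24.1 in the tumors and 45.7% ± 1.56 in the oviducts (SD, n = 3 each, two-sided exact permutation p = 0.4). Intervals cover counting error only, because the reads carry no molecular identifiers and need not be separate molecules.

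Scaled levels of miR-143-3p were 835012, 210162 and 94436 CPM in tumors 1, 2 and 3, against 516668, 485394 and 554585 CPM in oviducts 1, 2 and 3. It had a log2 fold change of -0.45 (SE 0.67, edgeR adjusted p = 0.578), with a 95% interval of -1.97 to 1.07. Tumor 1 stood at 1.61 times the oviduct mean, tumor 2 at 0.405 times and tumor 3 at 0.182 times. Tumors 2 and 3 were below every oviduct and tumor 1 above every oviduct. Without tumor 1 the strand was called, with a log2 fold change of -2.07 (edgeR adjusted p = 0.000532).

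The passenger strand miR-143-5p was rare, with 23, 7 and 5 counts in tumors 1, 2 and 3 and 42, 84 and 25 counts in oviducts 1, 2 and 3. Its scaled levels were 116, 30.1 and 21.98 CPM in the tumors, against 131, 153 and 98.8 CPM in the oviducts. Tumor 1 lay within the oviduct range and the other tumors below it, whereas for the 3p strand tumor 1 lay above the oviducts. The log2 fold change was -1.21 (SE 0.66, 95% interval -2.69 to 0.27, edgeR adjusted p = 0.147). It was -2.56 without tumor 1 (adjusted p = 0.00578) and -2.07 with TMM factors from 3p names alone (adjusted p = 0.0254), and both fits called it.

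miR-145a-5p, the guide, had the largest fall of the 5 strands. It had 10, 39 and 22 counts in tumors 1, 2 and 3, against 838, 1791 and 697 counts in oviducts 1, 2 and 3. Its scaled levels were 50.4, 167 and 96.7 CPM in the tumors and 2613, 3269 and 2755 CPM in the oviducts. Every tumor was far below every oviduct, and the lowest level was in tumor 1, the library with the highest level of miR-143-3p. The log2 fold change was -4.76 (SE 0.47, edgeR adjusted p = 3.78e-05), and each tumor alone stood 57.2, 17.2 and 29.8 times below the oviduct mean, in the order tumor 1, 2 and 3. In rank it stood between 132 and 205 among the names of the tumors, against 30 to 37 in the oviducts.

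miR-145a-3p, the passenger strand, had 68, 53 and 20 counts in tumors 1, 2 and 3, against 336, 528 and 112 counts in oviducts 1, 2 and 3. This came to 342, 228 and 87.9 CPM in the tumors and 1048, 964 and 443 CPM in the oviducts. The groups did not overlap, but tumor 1 and oviduct 3 lay close to each other. The log2 fold change was -1.90 (SE 0.53, edgeR adjusted p = 0.0133). It was -2.68 without tumor 1 and -2.58 without oviduct 3, and the call was lost without oviduct 2 (log2 -1.85, adjusted p = 0.0532).

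miR-133a-3p spread more among the tumors than any of the other strands. It had 141, 45 and 9 counts in tumors 1, 2 and 3, against 228, 510 and 140 counts in oviducts 1, 2 and 3. Scaled levels were 710.03, 193 and 39.6 CPM in the tumors and 711, 931 and 553 CPM in the oviducts. Tumor 1 was level with oviduct 1, while tumors 2 and 3 were below every oviduct. The log2 fold change was -1.23 (SE 0.77, 95% interval -2.96 to 0.50, edgeR adjusted p = 0.201), and it was -2.97 without tumor 1 (adjusted p = 0.00115) and -2.08 with TMM factors from 3p names alone (adjusted p = 0.0499).

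**Figure D1:**
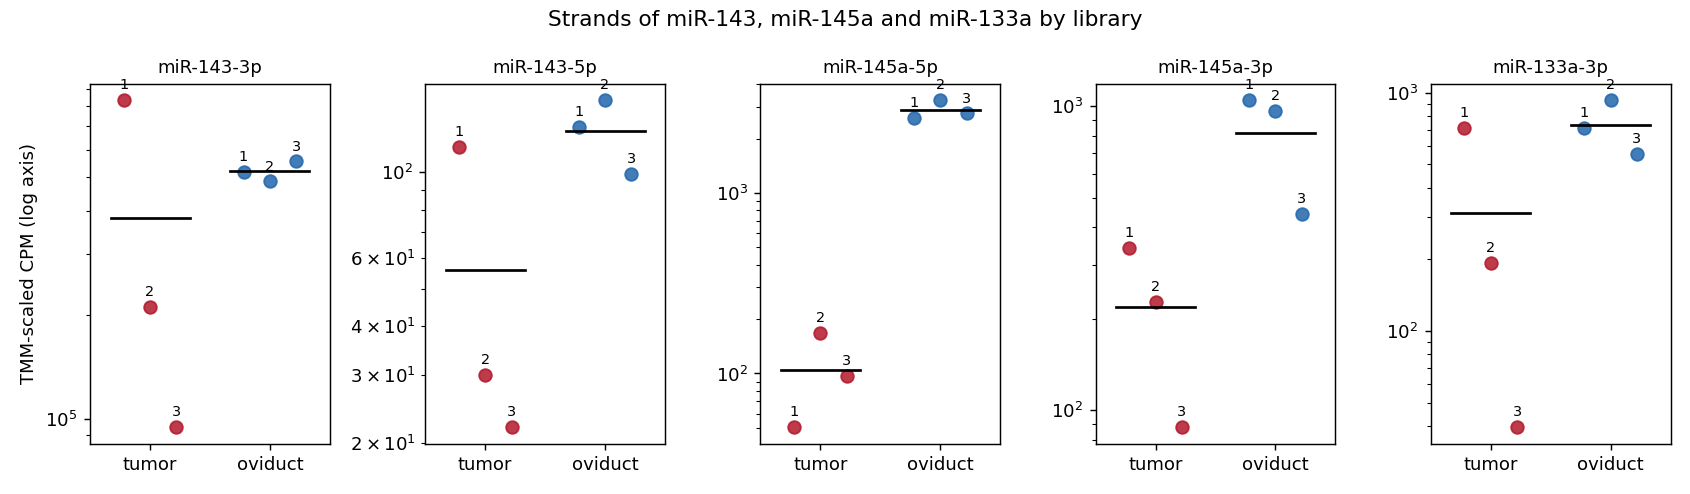
TMM-scaled CPM (log axis, a separate range for each panel) of the 5 strands in 3 tumors (red, left) and 3 oviducts (blue, right); points are libraries with their replicate number and bars are group means. Tumor 1 is the highest tumor for 4 strands and the lowest, at 50.4 CPM, for miR-145a-5p.

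In scaled levels, the range among the tumors was wider than that among the oviducts for each strand, as the plot of levels by library shows. The highest tumor exceeded the lowest 17.9-fold for miR-133a-3p, 8.84-fold for miR-143-3p, 5.27-fold for miR-143-5p, 3.89-fold for miR-145a-3p and 3.33-fold for miR-145a-5p. Among the oviducts these ratios were 1.68, 1.14, 1.55, 2.37 and 1.25 in the same order of strands. For 4 strands tumor 1 was highest and tumor 3 lowest, whereas for miR-145a-5p tumor 2 was highest and tumor 1 lowest. These ranges and orders depend on the scaling. As a share of the library, miR-145a-3p took 0.0250%, 0.0300% and 0.0130% in tumors 1, 2 and 3, with tumor 2 highest. In oviducts 1, 2 and 3 it took 0.0895%, 0.0910% and 0.0377%, and the ratio of highest to lowest share was not larger among the tumors.

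Likeness was measured as the mean absolute difference of log2 CPM over the 6 libraries after centring each profile on its own mean, a description with no test. The 3 names nearest to miR-133a-3p were miR-143-3p (0.46), miR-143-5p (0.49) and miR-145a-3p (0.52), the other members except miR-145a-5p. The strands of miR-143 differed from each other by 0.41, against a median of 1.12 between miR-143-3p and the other 226 tested names. miR-145a-5p differed from its own passenger by 1.43 and from miR-143-3p by 1.90. The names nearest to it were miR-218-5p (0.51), miR-411-5p (0.51) and miR-92b-3p (0.64), whose sequences are given above. miR-411-5p, of the imprinted cluster on chromosome 12, had 20.1, 12.9 and 8.79 CPM in tumors 1, 2 and 3, against 511, 661 and 743 CPM in oviducts 1, 2 and 3. miR-92b-3p had 327, 137 and 158 CPM in the tumors and 6345, 6199 and 6929.5 CPM in the oviducts. All tumors were far below all oviducts for both, as for miR-145a-5p. The tumor levels of miR-411-5p were near or under the floor of 3 counts, which came to 15.1, 12.9 and 13.2 CPM in tumors 1, 2 and 3. Those of miR-218-5p, at 5.04, 21.5 and 4.40 CPM, were under it in tumors 1 and 3. The likeness of both names to miR-145a-5p thus rests on few tumor counts. miR-125a-5p (0.45) and miR-29c-3p (0.45) were nearest to miR-145a-3p, and miR-1843b-5p (0.41) and miR-486a-5p (0.41), whose counts are identical to those of miR-486b-5p, stood beside miR-143-3p.

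Striated muscle names other than miR-133a-3p had few or no counts. Its usual partner miR-1a-3p had 1, 1 and 0 counts in tumors 1, 2 and 3 and 3, 18 and 7 counts in oviducts 1, 2 and 3. miR-133b-3p and miR-206-3p, which come from 1 locus in skeletal muscle, had 3 counts each over the 3 tumors, all in tumor 2. Over the 3 oviducts they had 1 and 0 counts. The strands of miR-208a and miR-499, of heart and slow muscle, had 0 counts in either group, below the floor of 3 counts. miR-208b-3p had 5 counts in the tumors, 3 of them in tumor 2, and 1 in the oviducts. Only miR-133a-3p of the 17 striated muscle names passed the filter on low counts, and 7 had a count at all. miR-133a-5p had 3 counts over the tumors and 1 over the oviducts, so the strand ratio of that hairpin rests on almost no 5p counts. Apart from miR-133a-3p, the names that define striated muscle thus reached at most the floor of 3 counts in a tumor, and only in tumor 2. In the oviducts only miR-1a-3p of these names, which was low, reached that floor, and it did so in each oviduct. The name miR-145b, a separate hairpin, had 0 counts in the tumors and 1 in the oviducts.

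Stromal names changed in both directions. The tested strands of miR-199a, miR-199b and miR-214, hairpins of fibroblasts and mesenchyme, hold 4 distinct sets of counts, since miR-199a-3p and miR-199b-3p have identical counts and are counted once here. Of these 2 rose and 2 fell, with a median log2 fold change of 0.53, beside -1.56 for the 4 tested strands of miR-143 and miR-145a and 0.20 for all names tested. miR-199a-3p averaged 32951 ± 8227 CPM in the tumors and 4541 ± 585 CPM in the oviducts (SD, n = 3 each; log2 2.86, edgeR adjusted p = 5.20e-05), and miR-214-3p rose as well (log2 2.76). The falls were those of the 5p strands miR-199a-5p (log2 -3.83) and miR-214-5p (log2 -1.69). Summed with identical counts taken once, the stromal names lay between 28572 and 44205 CPM in the tumors and between 4459 and 6018 CPM in the oviducts, and tumor 1, where miR-143-3p was highest, had the lowest sum of the tumors.

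The red cell sum was also highest in tumor 1. miR-451a, a microRNA of red cells, had 1088, 150 and 330 CPM in tumors 1, 2 and 3, against 165, 137 and 158 CPM in oviducts 1, 2 and 3. It rose (log2 1.76, edgeR adjusted p = 0.0449), although tumor 2 lay within the oviduct range. miR-486a-5p, which is found in both muscle and red cells, had 10469, 1713 and 2194 CPM in the tumors and 5469, 4335 and 4688 CPM in the oviducts. Endothelial names ranged from 15198 to 20196 CPM in the tumors and from 7146 to 9548 CPM in the oviducts. Leukocyte names, highest in tumor 2, summed to between 1430.1 and 7333 CPM in the tumors and between 1435 and 2410.3 CPM in the oviducts, and epithelial names to between 4164.5 and 7298 CPM in the tumors and between 7218 and 12212 CPM in the oviducts. The part of these cells in the levels of the muscle strands was not tested.

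Within its hairpin the guide of miR-145a lost ground to the passenger, while a change of the strand ratio of miR-143 was not called. The 5p strand took 12.8% (exact 95% interval 6.32 to 22.3) of the miR-145a counts in tumor 1, 42.4% (32.1 to 53.1) in tumor 2 and 52.4% (36.4 to 68.0) in tumor 3. In oviducts 1, 2 and 3 it took 71.4% (68.7 to 74.0), 77.2% (75.5 to 78.9) and 86.2% (83.6 to 88.5). No tumor reached the lowest oviduct. In tumors 1 and 2 the passenger had more counts than the guide, although the interval of tumor 2 includes equal shares. The means were 35.9% ± 20.6 in the tumors and 78.3% ± 7.44 in the oviducts (SD, n = 3 each), and the log2 ratio of 5p to 3p counts changed by -2.91 (SE 0.80, limma adjusted p = 0.0128), or by -2.06 without tumor 1.

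The miR-143 hairpin gave its 3p strand almost alone in both groups. The 5p strand took 0.0139%, 0.0143% and 0.0233% of its counts in tumors 1, 2 and 3, against 0.0253%, 0.0316% and 0.0178% in oviducts 1, 2 and 3. These ranges overlapped, and the log2 ratio changed by -0.47 (SE 0.59, 95% interval -1.77 to 0.83, limma adjusted p = 0.547). Among all 142 hairpins tested, 47.2% had a ratio that fell and the median change was -1.53, so the fall of miR-145a lay below that median and the value of miR-143 above it. The ratio of miR-133a rose by 3.46 (SE 1.31, limma adjusted p = 0.0462), against 4.23% of hairpins that rose, but its 5p counts were 0, 2 and 1 in tumors 1, 2 and 3 and 0, 0 and 1 in oviducts 1, 2 and 3. That call was lost under 7 of 12 alternatives.

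**Figure D2:**
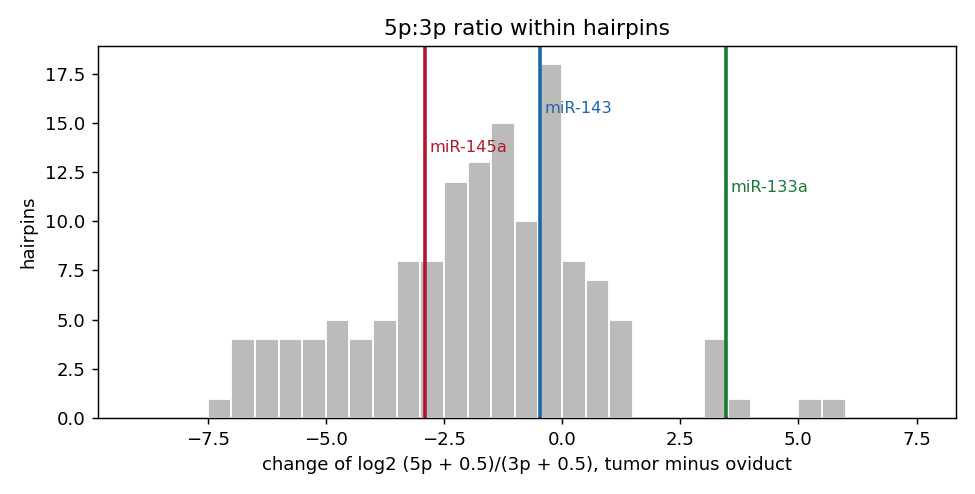
Histogram of the change (tumor minus oviduct) of the log2 ratio of 5p to 3p counts, with 0.5 added to each count, over 142 hairpins; lines mark miR-145a, miR-143 and miR-133a. miR-145a lies at -2.91 and miR-143 at -0.47, on either side of the median of -1.53.

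The neighbouring hairpins stood further apart in every tumor library than in any oviduct library. Counts of the whole miR-143 hairpin exceeded those of miR-145a 2126-fold in tumor 1 (165842 against 78 counts), 532-fold in tumor 2 (48958 against 92) and 512-fold in tumor 3 (21486 against 42). In the oviducts the excess was 141-fold, 115-fold and 173-fold (165739 against 1174 counts, 265996 against 2319 and 140322 against 809). All tumors lay above all oviducts, and the oviducts were within a narrow range. Relative to the oviduct mean on the log2 scale, the ratio was 14.98 times higher in tumor 1, 3.75 times in tumor 2 and 3.58 times in tumor 3. The ratio of counts is compared between libraries and is not read as a ratio of molecules.

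The log2 ratio of hairpin totals averaged 9.69 ± 1.17 in the tumors and 7.14 ± 0.30 in the oviducts (SD, n = 3 each), a difference of 2.55. The two-sided exact permutation p was 0.1, the smallest that 3 libraries against 3 allow. With the spread shared over all neighbouring pairs, the difference had an SE of 0.61 (limma adjusted p = 0.00972), and it was 1.87 without tumor 1 (adjusted p = 0.00828).

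By strand, the ratio of the 5p strands was called and that of the 3p strands was not, and the difference between these changes was not tested. miR-143-5p counts were 2.30 times those of miR-145a-5p in tumor 1, 0.179 times in tumor 2 and 0.227 times in tumor 3, against 0.0501, 0.0469 and 0.0359 times in oviducts 1, 2 and 3. This was a difference of 3.40 on the log2 scale (SE 0.91, limma adjusted p = 0.0208), which was 2.28 without tumor 1 and 4.06 without tumor 2. Its call was lost without any oviduct (adjusted p = 0.0608, 0.0802 and 0.0564 without oviduct 1, 2 and 3). In tumor 1 miR-143-5p outnumbered miR-145a-5p, by 23 counts to 10, which was so in none of the other libraries.

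The 3p strands did not separate the groups. miR-143-3p counts were 2439, 924 and 1074 times those of miR-145a-3p in tumors 1, 2 and 3, against 493, 504 and 1253 times in oviducts 1, 2 and 3. Oviduct 3 had a higher ratio than tumors 2 and 3. The difference of the log2 ratios was 0.97 (SE 0.57, 95% interval -0.33 to 2.27, limma adjusted p = 0.21), and it was called without oviduct 3 (log2 1.41, adjusted p = 0.0432). The guides set against each other, miR-143-3p over miR-145a-5p, gave the widest separation, with 16582-fold, 1255-fold and 976-fold in tumors 1, 2 and 3 and 198-fold, 148-fold and 201-fold in oviducts 1, 2 and 3. Their log2 ratio differed by 3.88 (n = 3 each, exact permutation p = 0.1), or by 2.59 without tumor 1 and 4.61 without tumor 3.

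**Figure D3:**
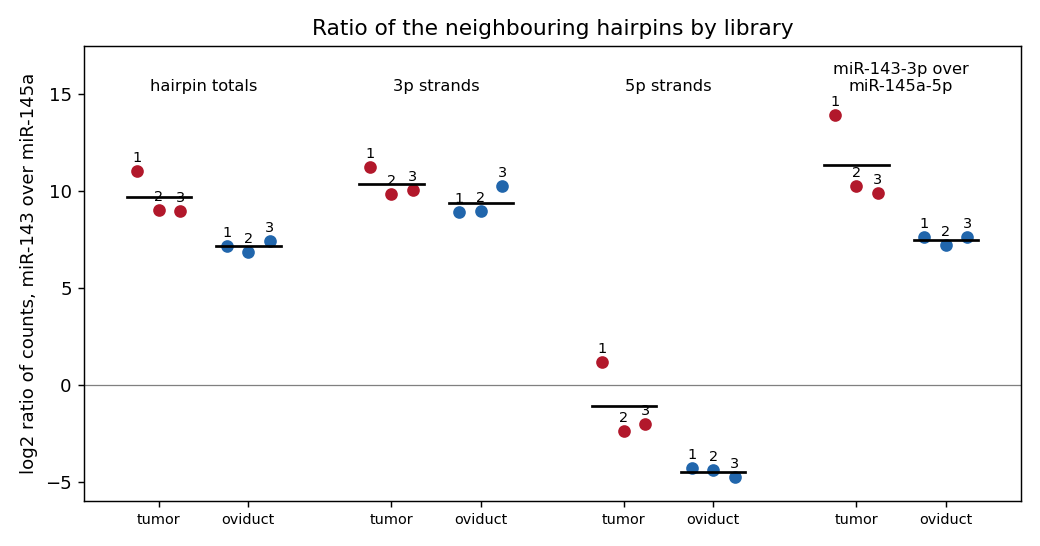
Log2 ratio of miR-143 to miR-145a counts in 3 tumors (red, left of each pair) and 3 oviducts (blue, right), for hairpin totals, 3p strands, 5p strands, and miR-143-3p over miR-145a-5p; points are libraries with their replicate number and bars are group means. The groups are apart for all but the 3p strands, where oviduct 3 lies above tumors 2 and 3.

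A changed ratio between neighbours was common in these tumors. Of 24 pairs of adjacent hairpins on 1 strand, at most 10 kb apart and each with a mean of at least 20 counts, 45.8% were called by limma, 5 with a ratio (upstream over downstream hairpin) that rose and 6 with a ratio that fell. Groups did not overlap for 66.7% of the pairs. By size, the change of miR-143 over miR-145a was the eighth of the 24, whose median absolute change was 1.38. For single strands 44.4% of 9 pairs of 5p strands and 25% of 16 pairs of 3p strands were called, and groups did not overlap for 66.7% of the 5p pairs and 43.8% of the 3p pairs. Among the 5p pairs miR-143 over miR-145a had the largest change. Pairs that share a hairpin, such as those of miR-503, are not independent of each other.

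The largest rises were those of miR-503 over miR-351 (log2 7.09), 2 hairpins of a growth-linked cluster on chromosome X, miR-34b over miR-34c (log2 3.21), of multiciliated cells, and miR-143 over miR-145a (log2 2.55). The largest falls were those of miR-541 over miR-409 (log2 -6.12), of the imprinted cluster on chromosome 12, miR-351 over miR-542 (log2 -5.27) and miR-322 over miR-503 (log2 -4.28). With single libraries left out, these ranged from 6.77 to 7.74 for miR-503, from 2.81 to 3.94 for miR-34b, from -7.88 (without tumor 3) to -4.84 (without tumor 2) for miR-541, from -5.61 to -4.67 for miR-351 and from -5.13 (without oviduct 3) to -3.76 (without oviduct 1) for miR-322. All of them were called in each of these fits. In the oviducts, however, miR-503 and miR-542 had few counts. The changes of miR-503 over miR-351, miR-322 over miR-503 and miR-351 over miR-542 thus rest on few oviduct counts. Their sizes depend in part on the small value added to each count. Leaving out single libraries does not remove this limit.

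In the oviducts most counts of miR-143 were 3p and most counts of miR-145a were 5p, and all 8 pairs with opposite main strands were called. This grouping was made after the values were seen, from oviduct counts that also enter the changes, and carries no test. The 8 pairs are not separate cases, since miR-106b over miR-93 and miR-93 over miR-25 share a hairpin. Those of miR-322, miR-503, miR-351 and miR-542 form a chain, and a change of a shared hairpin moves both of its ratios. The main strand of miR-503, which places miR-503 over miR-351 and miR-322 over miR-503 in this grouping, rests on few oviduct counts. That of miR-542, in miR-351 over miR-542, rests on few oviduct counts as well. In all 4 pairs with a 3p hairpin upstream and a 5p hairpin downstream, among them miR-143 over miR-145a, the ratio rose. In all 4 pairs of the reverse kind it fell. Of the 16 pairs whose hairpins had the same main strand 3 were called, miR-434 over miR-136, miR-222 over miR-221 and miR-181c over miR-181d, the first of them in 4 of 6 fits without a single library. The median absolute change was 3.74 in the 8 pairs with opposite strands and 0.70 in the 16 others. In fits without a single library the ratio leaned to the 3p hairpin in 8 of 8 pairs, of which 7 or 8 were called. Such fits reuse the same pairs, main strands and most of the counts, so they give no separate support for the grouping. The call of miR-93 over miR-25 (log2 -1.32) was the one that was lost, in 5 of 6 such fits.

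**Figure D4:**
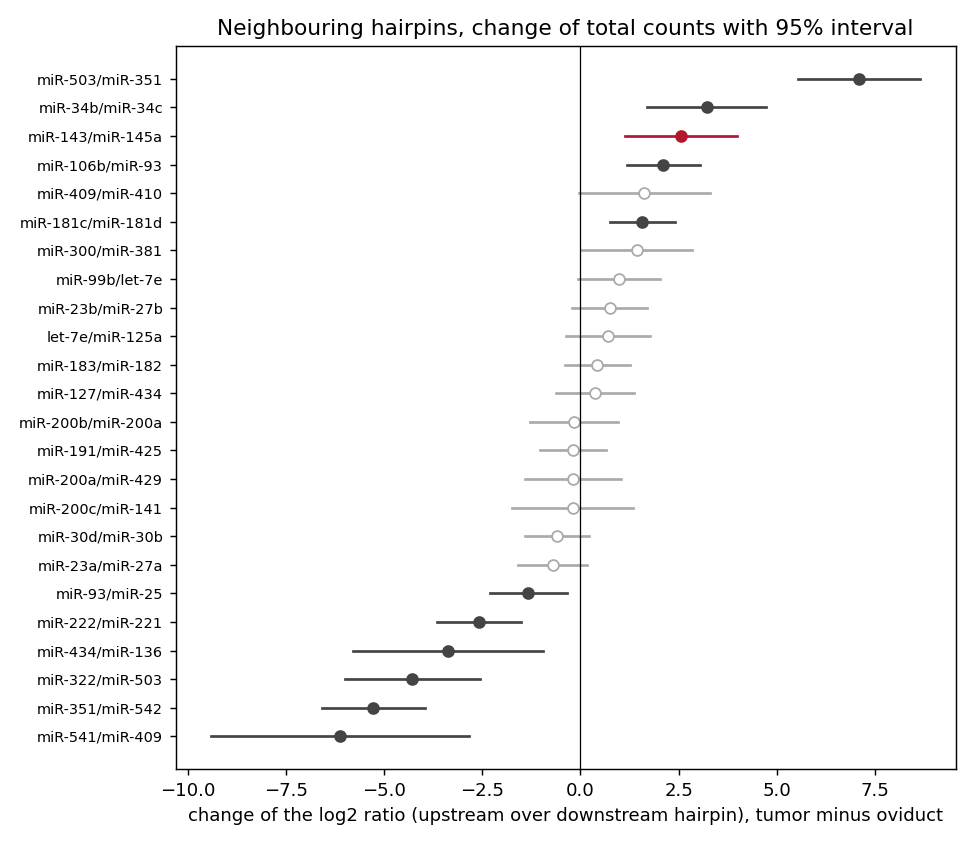
Change (tumor minus oviduct) of the log2 ratio of total counts, upstream over downstream hairpin, for 24 neighbouring pairs with 95% intervals; filled points were called by limma at an adjusted p under 0.05, open points were not, and miR-143 over miR-145a is in red. Its change of 2.55 is exceeded among the rises by those of miR-34b over miR-34c and miR-503 over miR-351.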

How the data were processed

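The deposited file holds raw whole-number counts per mature microRNA name, with no normalization by the authors. Total RNA (miRNeasy) was extracted and libraries were built with the Illumina TruSeq small RNA kit, per the labels' protocols. The submitters' processing notes name cutadapt, and column names per the file headers point to BAM files of trimmed reads. The aligner, counting program, microRNA reference, build and treatment of multiply matching reads remain not given in the sources used here. A tag in the column names, s0 in the oviducts and s1 in the tumors, runs with the groups, and its meaning is not stated. The 67 names of other species, with 10 counts, were left out.

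Groups came from the labels. Libraries of a group differed beyond counting noise (lowest chi-square per degree of freedom 24.4). Single names were tested with edgeR 4.0.16 in R 4.3.3 (filterByExpr with a minimum count of 10, TMM, robust quasi-likelihood). TMM factors were 0.734, 1.33 and 1.49 in tumors 1, 2 and 3 and 0.855, 0.946 and 0.853 in oviducts 1, 2 and 3. A floor of 3 counts came to between 12.9 and 15.1 CPM in the tumors and between 5.48 and 11.9 CPM in the oviducts. Reads cover the whole mature strand, so counts were not divided by length. Strand ratios (0.5 added to each count; hairpins with a mean of at least 20 counts) and ratios of neighbouring hairpins (each with 1 annotated locus) were tested with limma 3.58.1. Tests were two-sided, with Benjamini-Hochberg adjustment over all names, hairpins or pairs of 1 kind and a threshold of 0.05. SDs are over 3 libraries, and single shares carry exact Clopper-Pearson 95% intervals.

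Tests were checked on simulated counts, where most large changes were recovered, few small changes of single names were, and some unchanged neighbouring pairs were called. A missed call is therefore weak evidence against a small change, and a single pair call carries that limit. Alternatives included DESeq2 1.42.0, other scalings, filters and pseudocounts, a replicate block and leaving out each library. The members, lists and tests were chosen with earlier results of these data known. Named microRNAs were the members, the striated muscle list, the stromal names with the highest levels, the 3 names with profiles nearest to each member, and the 3 largest pair changes in each direction; others, among them miR-451a, miR-93 over miR-25 and the called pairs with the same main strand, were named after their values were seen. Figures used Python 3.11.15 and matplotlib 3.10.9.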

Additional observations from a re-analysis of the deposited data

How the results depend on the processing

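The fall of miR-145a-5p was called under all 15 alternatives, with log2 values from -5.59 to -4.27. That of miR-145a-3p was lost only without oviduct 2, and leaving out single libraries gave -2.68 to -1.62. The same ranges were -2.07 to -0.037 for miR-143-3p, -2.56 to -0.89 for miR-143-5p and -2.97 to -0.76 for miR-133a-3p, all 3 being called without tumor 1. With TMM factors from 3p names alone, miR-143-5p (log2 -2.07) and miR-133a-3p (log2 -2.08) were called as well. The median log2 fold change of all names was 0.20 with TMM and 0.65 when only library totals were used, while TMM on 3p names gave -0.66. Library totals gave 26 names lower in the tumors and 72 higher, and factors from 3p names 92 lower and 42 higher. With no filter on low counts, which tests more names, 98 were higher. With the miR-143 strands left out of the scaling, miR-143-3p had a log2 fold change of -0.15 and miR-145a-5p of -4.56.

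The strand ratio of miR-145a stayed called under all 12 alternatives (-3.48 to -2.06), and that of miR-143 under none (-0.74 to -0.03). An edgeR interaction of arm and group gave 44 falls of the ratio. The ratio of miR-143 to miR-145a totals was called under all 12 alternatives (1.87 to 2.91). The ratio of their 5p strands ranged from 2.28 to 4.06 without single libraries, and that of their 3p strands from 0.53 to 1.41. The number of pairs called ranged from 1 to 4 for 5p strands and from 1 to 8 for 3p strands without single libraries. With a mean of at least 100 counts it was 5 for totals, 2 for 5p strands and 0 for 3p strands (limma, 6 pairs left, of which 0 had an unadjusted p under 0.05). That minimum also removed miR-143-5p, so the 5p pair has no value there. All permutation p-values were at or above 0.1, which 3 against 3 cannot go below, so they say nothing on stability. Except where fewer names or pairs were tested or left, the cause of a changed call was not tested.

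Same-numbered tumor and oviduct libraries did not deviate together (r across names -0.05, 0.09 and -0.14), which gives no sign that the numbers pair them. With 3 libraries per group this check cannot exclude pairing. With the replicate number as a block, log2 values were -4.88 for miR-145a-5p, -1.99 for miR-145a-3p, -1.04 for miR-143-3p, -1.49 for miR-143-5p and -1.92 for miR-133a-3p, and no call of these strands changed. Counts of 10 to 39 for miR-145a-5p and 5 to 23 for miR-143-5p in the tumors limit the precision of single libraries.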
